A study of Mus musculus with 8 samples.

Results

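Sialyl-, fucosyl- and lactosamine-type glycosyltransferases are Golgi enzymes that build the outer ends of the sugar chains on proteins and lipids. The genes described here are those of the deposited count table whose symbols begin with St3gal, St6gal, St6galnac, St8sia, Fut, B3gnt, B3galt, B4galt, B4galnt or Gcnt and end in a number, which gave 57 of the 34536 symbols in 10 families. Of these, 44 had enough reads to be tested and 13 did not. They were compared between 4 mouse libraries of cells labelled endocardial (A, C, E and G) and 4 of cells labelled endothelial (B, D, F and H), all sorted by flow cytometry from embryoid bodies, which are aggregates of differentiating pluripotent stem cells. Endocardium is the endothelium that lines the heart. The sort markers, the stem cell line, any transgene it carries and the day of culture are not stated in the sources used here. Nothing in the labels says that the libraries come from separate cultures, so the p-values measure the spread between these libraries, which may be technical.

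Sugar chains grow in steps. Galactose is added to N-acetylglucosamine to give lactosamine (B4galt and B3galt enzymes), lactosamine is repeated or branched (B3gnt and Gcnt), and the chain is then capped with sialic acid (St3gal, St6gal, St6galnac and St8sia), fucose (Fut) or N-acetylgalactosamine (B4galnt). The caps form epitopes that lectins bind and that mark cell states. Lewis x, a fucosylated lactosamine known as a stage-specific antigen of mouse embryonic stem cells and also present in brain, and polysialic acid on neural adhesion molecules are examples. In endothelium, sialylated O-glycans coat the cell surface, and mice that lack core 1 O-glycans have defective vessels.

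The values are read counts estimated per gene, from 6677667 to 11369363 per library, given here as CPM, which scales each library's counts to the same total, after TMM correction of the totals. A count of 0 allowed a level of up to between 0.267 and 0.438 CPM (3 counts), a limit that covers counting error only. The marker genes of both labelled cell types were present in all libraries. Of 14 pan-endothelial markers, 12 were higher and 0 lower in endocardial libraries. Their summed level was 1405 to 1843 CPM in endocardial and 403 to 866 CPM in endothelial libraries. Within these sums, mean Kdr was 612 CPM in endocardial and 242 CPM in endothelial libraries. Tek, at 230 and 208 CPM, was not called. Some markers of lower level differed more than Kdr, such as Cdh5 at 132 and 16.1 CPM and Erg at 32.3 and 4.59 CPM. Pecam1, at 157 and 88.6 CPM, differed less than Kdr, and Emcn, at 8.28 and 1.35 CPM, overlapped and was not called. Of 7 endocardial markers, 4 were higher and 0 lower, with sums of 659 to 721 CPM in endocardial and 201 to 330 CPM in endothelial libraries. Markers of other cell types differed too. Of 12 pluripotency markers 2 were called lower and 0 higher, 9 had an unadjusted p under 0.05 and 11 log2 fold changes were negative (median -3.12), with sums of 405 to 590 CPM in endocardial and 509 to 1352 CPM in endothelial libraries. These sums hide most of that difference, since Lin28a, which had a log2 fold change of -0.01, made up between 20.8% and 74.0% of them. Of 12 neural ectoderm markers 7 were called lower and 0 higher, 9 had an unadjusted p under 0.05, and the median was -2.06. Their sums were 209 to 320 CPM in endocardial and 296 to 427 CPM in endothelial libraries. Nes, with a log2 fold change of -0.06, made up between 36.7% and 59.2% of these sums. Of 8 epithelial markers 2 were called lower and 0 higher, 6 had an unadjusted p under 0.05, and the median was -1.90. Their sums were 543 to 896 CPM in endocardial and 685 to 1250 CPM in endothelial libraries. Krt8, with a log2 fold change of 0.02, made up between 23.8% and 59.4% of these sums. Of 9 blood markers 2 were called higher and 0 lower (unadjusted p under 0.05 in 4), and of 5 tested endoderm markers 1 was called higher and 0 lower (unadjusted p under 0.05 in 3), that 1 being Sox17, which is also among the pan-endothelial markers. Of 7 cardiomyocyte and 8 mesenchyme markers edgeR called 0, with 2 and 0 at an unadjusted p under 0.05. No marker in these lists was at 0 in all 8 libraries. Endothelial library F stood apart, with the lowest pan-endothelial sum and the highest pluripotency sum. Kdr and Tek were lowest in F, at 129 and 49.5 CPM, while its Pecam1, 109 CPM, was the highest endothelial value. These are bulk samples, so fewer cells of a type and less RNA per cell cannot be told apart.

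Most of these glycosyltransferase genes did not differ by the test, and a few capping and chain enzymes did. St3gal1, St6galnac3 and St6galnac4, which sialylate O-glycans, were higher in endocardial libraries by 1.59-fold to 1.78-fold. Fut9, a Lewis x synthase, B3gnt7, a lactosamine chain enzyme, and the sialyltransferases St8sia3 and St6gal2 were lower, at 0.108 to 0.243 of the endothelial level. These 7 were the only members called by edgeR's quasi-likelihood test at an adjusted p below 0.05 over all genes, 3 higher and 4 lower of 44 tested. That is 15.9% of the tested members, where 2.58% of all 13817 tested genes were called, 1.42% higher and 1.16% lower. Among these calls St8sia3, Fut9 and St6gal2, all lower, were tested because of the endothelial libraries, where they are high. These genes also count in the shares by unadjusted p and by overlap given below. No test set the members against other genes. With relative log expression scaling the split was 2 higher and 4 lower, and with upper-quartile scaling 1 higher and 4 lower. The unadjusted p was under 0.05 in 13 members, 29.5% of those tested, against 14.6% of all tested genes. In 10 tested members (22.7%) the endocardial and endothelial libraries did not overlap, against 9.76% of all tested genes. The median log2 fold change, endocardial minus endothelial, was -0.02 over the tested members and 0.01 over all tested genes, and 29 of the 44 members lay within 0.5 of 0.

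**Figure D1:**
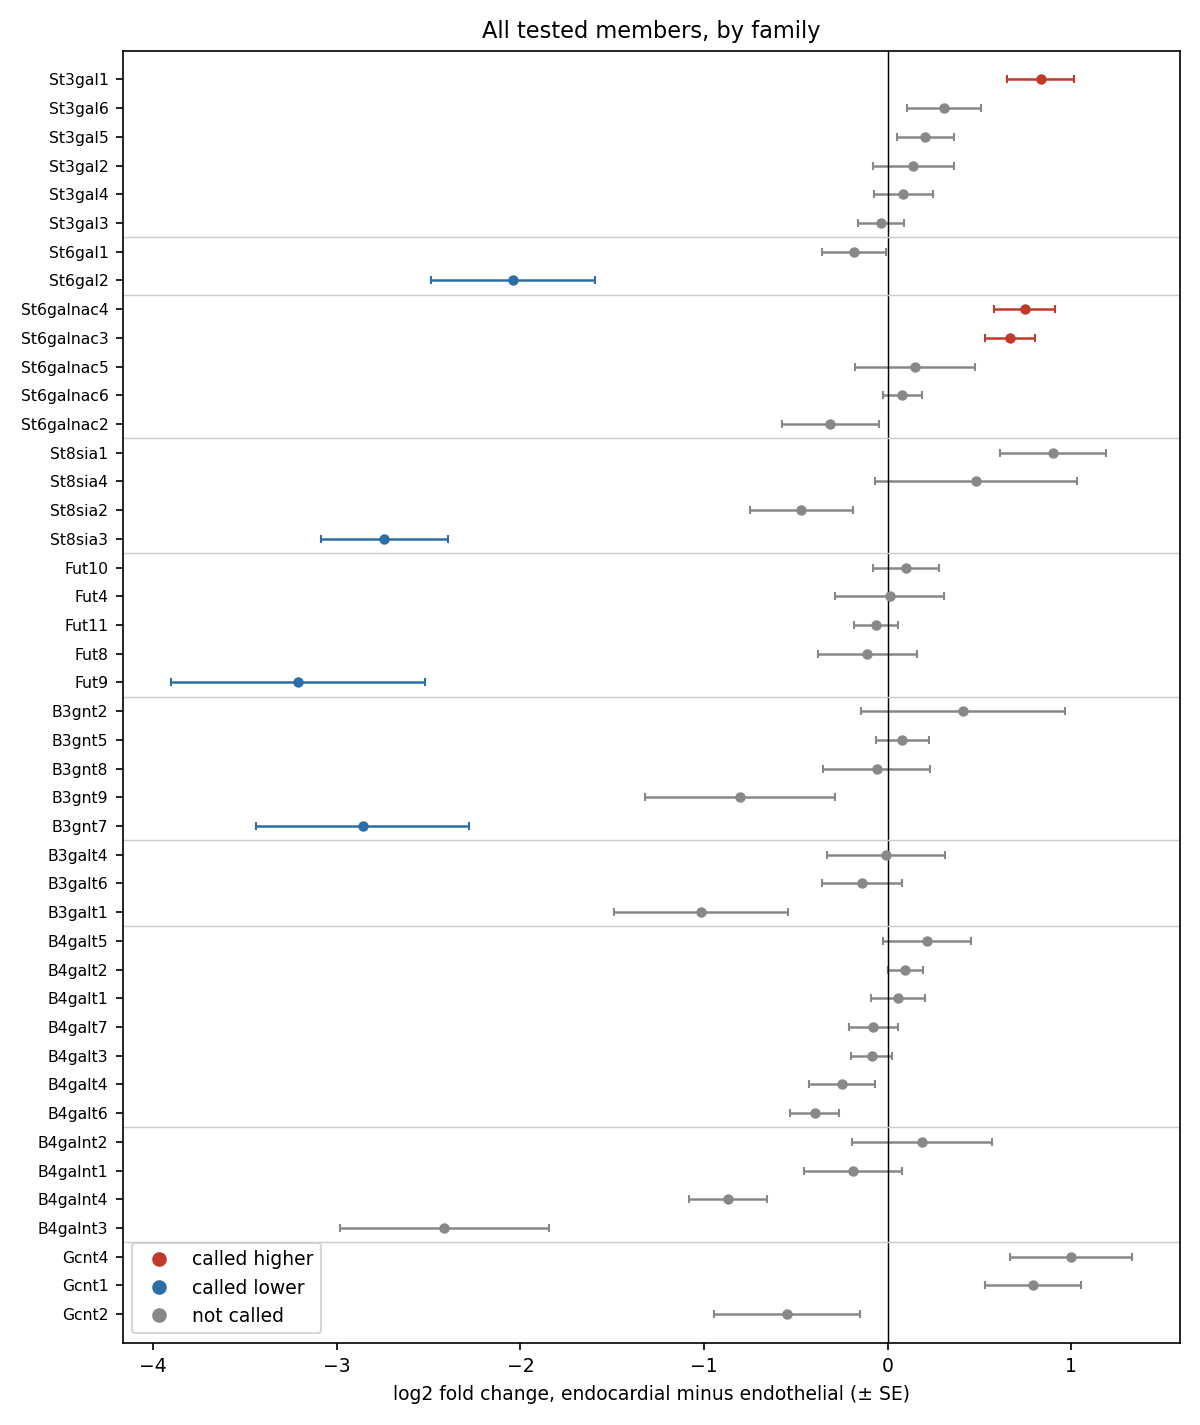
Log2 fold change (endocardial minus endothelial, x axis) of the 44 tested members, ordered by family from top to bottom. Points are edgeR estimates and bars their SE. The 3 members called higher lie between 0.67 and 0.83 and the 4 called lower between -3.21 and -2.04, while 29 of the 44 lie within 0.5 of 0.

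Among the enzymes that sialylate galactose of O-glycans, St3gal1 caps core 1, the galactose to N-acetylgalactosamine disaccharide of mucin-type chains. It had 67.3, 54.6, 60.9 and 51.6 CPM in endocardial libraries A, C, E and G, against 39.1, 38.0, 21.5 and 33.0 CPM in endothelial libraries B, D, F and H. The groups did not overlap, and the lowest of the 8 values was that of library F. St3gal1 (build GRCm38, chromosome 15, 67102875 to 67176830, minus strand, protein-coding) differed by 0.83 on the log2 scale (SE 0.18, adjusted p = 0.0437 by edgeR with Benjamini-Hochberg adjustment). The call was kept in 2 of the 8 fits with 1 library left out, those without B or F, and the adjusted p was 0.0525 with upper-quartile scaling.

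St6galnac3 and St6galnac4 add sialic acid to the N-acetylgalactosamine of an already sialylated core 1 chain, giving the disialylated form. St6galnac3 (chromosome 3, 153198266 to 153725174, minus strand) had 41.2, 43.0, 35.6 and 42.0 CPM in endocardial libraries A, C, E and G, against 25.5, 26.3, 20.2 and 30.0 CPM in endothelial libraries B, D, F and H. Its groups did not overlap, and its difference was 0.67 on the log2 scale (SE 0.14, adjusted p = 0.033). St6galnac4 (chromosome 2, 32587095 to 32599698, plus strand) had 30.3, 30.4, 28.3 and 25.1 CPM in endocardial libraries A, C, E and G, against 22.1, 16.4, 13.04 and 16.4 CPM in endothelial libraries B, D, F and H. The lowest endocardial value lay above the highest endothelial one, that of library B. Its difference was 0.75 on the log2 scale (SE 0.17, adjusted p = 0.0473). St6galnac3 was called in 2 of the 8 fits with 1 library left out, without B or H, and St6galnac4 in 1, without B. The adjusted p of St6galnac4 was 0.0517 with relative log expression scaling and 0.0592 with upper-quartile scaling.

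Gcnt1, which makes the core 2 branch of O-glycans, had 32.4, 22.8, 26.1 and 21.96 CPM in endocardial libraries A, C, E and G, against 23.8, 12.3, 13.5 and 9.69 CPM in endothelial libraries B, D, F and H. Library B lay within the endocardial range. Gcnt1 differed by 0.79 on the log2 scale (SE 0.26, adjusted p = 0.169) and was called without library B (adjusted p = 0.0199), by limma and with neighbouring letters as a block. Gcnt4, a second core 2 enzyme, had 1.94, 3.24, 1.83 and 2.99 CPM in endocardial libraries A, C, E and G, against 0.981, 1.46, 1.04 and 1.55 CPM in endothelial libraries B, D, F and H. Its groups did not overlap at these low counts, and it was not called (log2 fold change 0.998, SE 0.33, adjusted p = 0.169). Gcnt2, the I-branching enzyme of lactosamine chains, was at 8.58 ± 3.19 CPM in endocardial and 12.5 ± 6.66 CPM in endothelial libraries (SD, n = 4 each), with its highest value, 20.97 CPM, in library F.

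**Figure D2:**
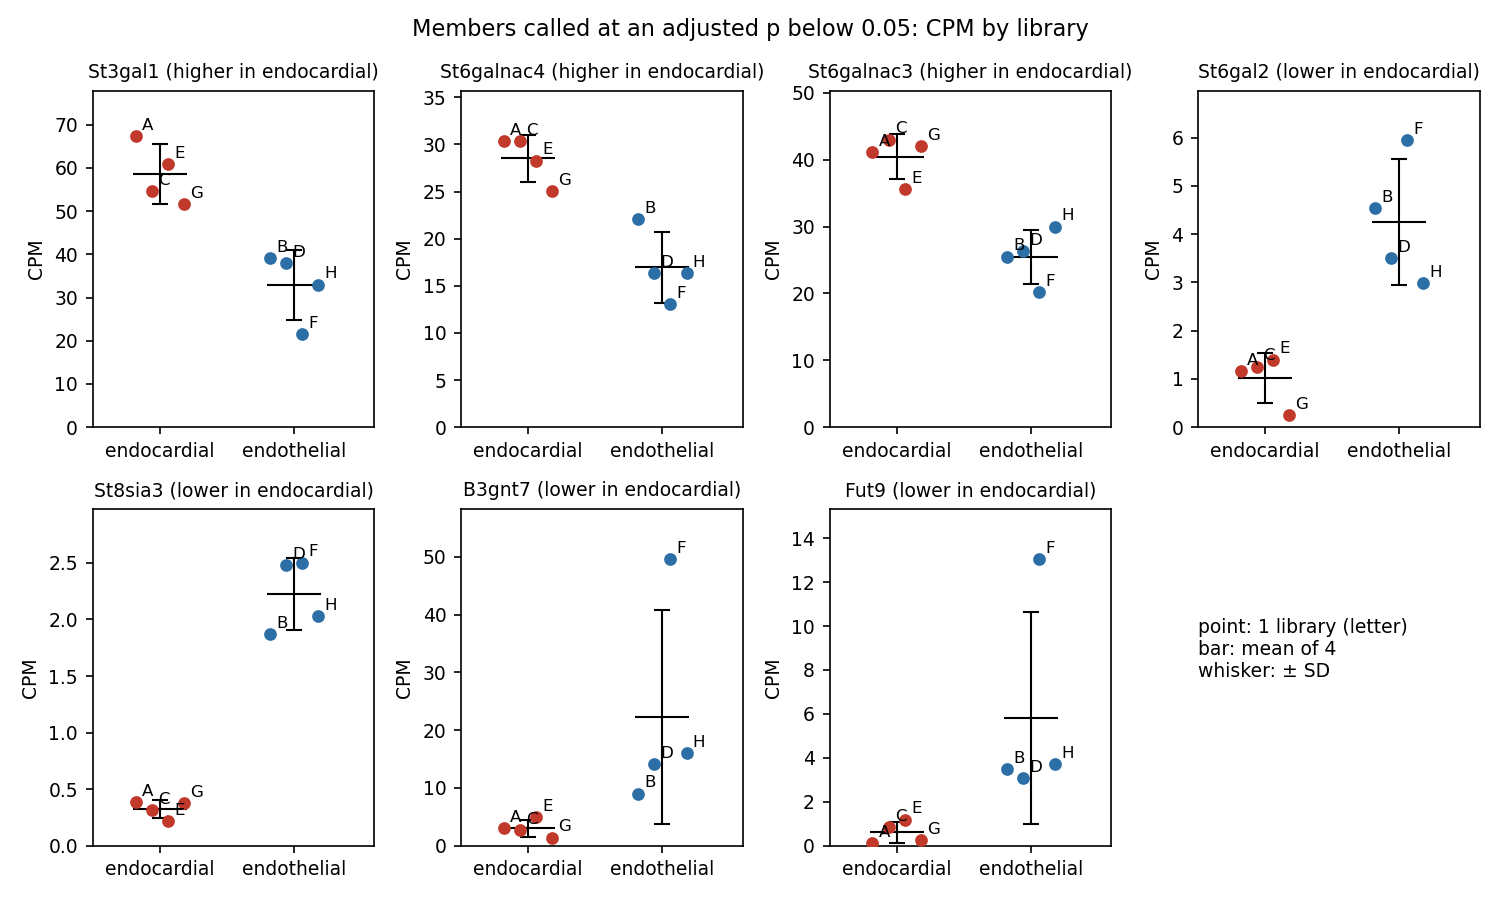
CPM (y axis, from 0) of the 7 called members in each library, endocardial left and endothelial right. Points are libraries with their letters, bars the mean and whiskers the SD of 4. The groups do not overlap in any of the 7, and library F has the highest endothelial value of Fut9, B3gnt7, St6gal2 and St8sia3 and the lowest of St3gal1, St6galnac3 and St6galnac4.

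Fut9 makes Lewis x by adding fucose to lactosamine. It had 0.129, 0.837, 1.18 and 0.25 CPM in endocardial libraries A, C, E and G, which are 1, 8, 11 and 2 counts. It had 3.48, 3.07, 13.04 and 3.71 CPM in endothelial libraries B, D, F and H. Library F was far above the other endothelial libraries, and all 4 endothelial values lay above the endocardial ones. Fut9 (chromosome 4, 25609332 to 25800244, minus strand) differed by -3.21 on the log2 scale (SE 0.69, adjusted p = 0.0419). The summed counts were 22 in endocardial and 216 in endothelial libraries, a depth-corrected ratio of 0.106 (95% exact interval 0.065 to 0.165, counting error only). Without library F the log2 fold change was -2.46 (adjusted p = 0.0554), and the call was kept in 1 of the 8 fits with 1 library left out, that without B. Fut4, the other fucosyltransferase here that makes Lewis x, was at 6.53 ± 2.47 CPM in endocardial and 6.51 ± 1.08 CPM in endothelial libraries (SD, n = 4 each; log2 fold change 0.01, SE 0.30, adjusted p = 0.992).

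B3gnt7 adds N-acetylglucosamine to lactosamine chains of the keratan sulfate type. It had 3.10, 2.72, 4.95 and 1.37 CPM in endocardial libraries A, C, E and G, against 9.01, 14.2, 49.6 and 16.02 CPM in endothelial libraries B, D, F and H. Library F again held the highest value, and library B, the lowest endothelial one, lay above all endocardial libraries. B3gnt7 (chromosome 1, 86302832 to 86307305, plus strand) differed by -2.86 on the log2 scale (SE 0.58, adjusted p = 0.0349). Without F it was -2.11 (adjusted p = 0.024). The call was kept without B or F, lost in the other 6 fits with 1 library left out, and lost with no filter on low counts (adjusted p = 0.0846).

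St8sia3 joins a further sialic acid to sialylated chains and is known from brain. It had 0.387, 0.314, 0.215 and 0.374 CPM in endocardial libraries A, C, E and G, which are 2 or 3 counts each, against 1.87, 2.48, 2.50 and 2.03 CPM in endothelial libraries B, D, F and H. The groups lay well apart and the endothelial libraries differed little among themselves, with library F close to library D. St8sia3 (chromosome 18, 64254359 to 64279611, plus strand) differed by -2.74 on the log2 scale (SE 0.35, adjusted p = 0.00307). The summed counts were 11 in endocardial and 79 in endothelial libraries, a ratio of 0.145 (95% exact interval 0.0695 to 0.274, counting error only). It was called in all 8 fits with 1 library left out and was too low to be tested under the stricter filter. It passed the low-count filter through the endothelial libraries alone, so it could hardly have been tested without a difference. Fut9 and St6gal2 had 1 and 3 of the 4 endocardial libraries and all 4 endothelial libraries over the filter's level of 1.13 CPM, which 4 libraries must pass, so they too were tested because of the endothelial libraries.

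St6gal2 transfers sialic acid to the galactose of lactosamine, as St6gal1 does, and is known from brain, while St6gal1 is widespread. St6gal2 had 1.16, 1.26, 1.40 and 0.25 CPM in endocardial libraries A, C, E and G, against 4.55, 3.50, 5.95 and 2.99 CPM in endothelial libraries B, D, F and H. The groups did not overlap. St6gal2 (chromosome 17, 55445382 to 55514581, plus strand) differed by -2.04 on the log2 scale (SE 0.45, adjusted p = 0.0437), and the call was lost in each of the 8 fits with 1 library left out, with adjusted p from 0.0523 to 0.113. St6gal1 had 63.9, 77.8, 63.3 and 70.2 CPM in endocardial libraries A, C, E and G, against 99.8, 77.7, 52.6 and 82.5 CPM in endothelial libraries B, D, F and H. These values overlapped (log2 fold change -0.18, SE 0.18, adjusted p = 0.716). Per kilobase of exon, St6gal1 made up 99.0% ± 0.525 of the summed level of both genes in endocardial and 96.2% ± 2.15 in endothelial libraries (SD, n = 4 each), so the difference in St6gal2 lay in the minor gene of this family.

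B4galnt3 and B4galnt4 add N-acetylgalactosamine to N-acetylglucosamine, giving LacdiNAc in place of lactosamine. B4galnt3 had 2.07, 2.72, 1.72 and 2.12 CPM in endocardial libraries A, C, E and G, against 4.81, 5.99, 27.8 and 7.53 CPM in endothelial libraries B, D, F and H. B4galnt4 had 28.5, 32.9, 27.2 and 22.7 CPM in endocardial libraries A, C, E and G, against 41.8, 54.6, 71.7 and 35.5 CPM in endothelial libraries B, D, F and H. For both genes the groups did not overlap and library F was highest. Neither passed the test, with log2 fold changes of -2.41 (SE 0.57, adjusted p = 0.0592) and -0.87 (SE 0.21, adjusted p = 0.0659). DESeq2 called both, with adjusted p of 0.00062 for B4galnt3 and 0.00674 for B4galnt4, as did limma (0.041 and 0.0297) and edgeR with the block of neighbouring letters (0.0324 and 0.0132). When library F was left out, B4galnt3 had a log2 fold change of -1.51 (adjusted p = 0.0283), and B4galnt4 had -0.67 (adjusted p = 0.107). B4galnt3 was also called without B (adjusted p = 0.0303) and B4galnt4 without H (adjusted p = 0.0338). The other members of the family were not called. B4galnt1, which makes the complex gangliosides, had a log2 fold change of -0.19, and B4galnt2, which makes the Sda antigen, one of 0.19.

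**Figure D3:**
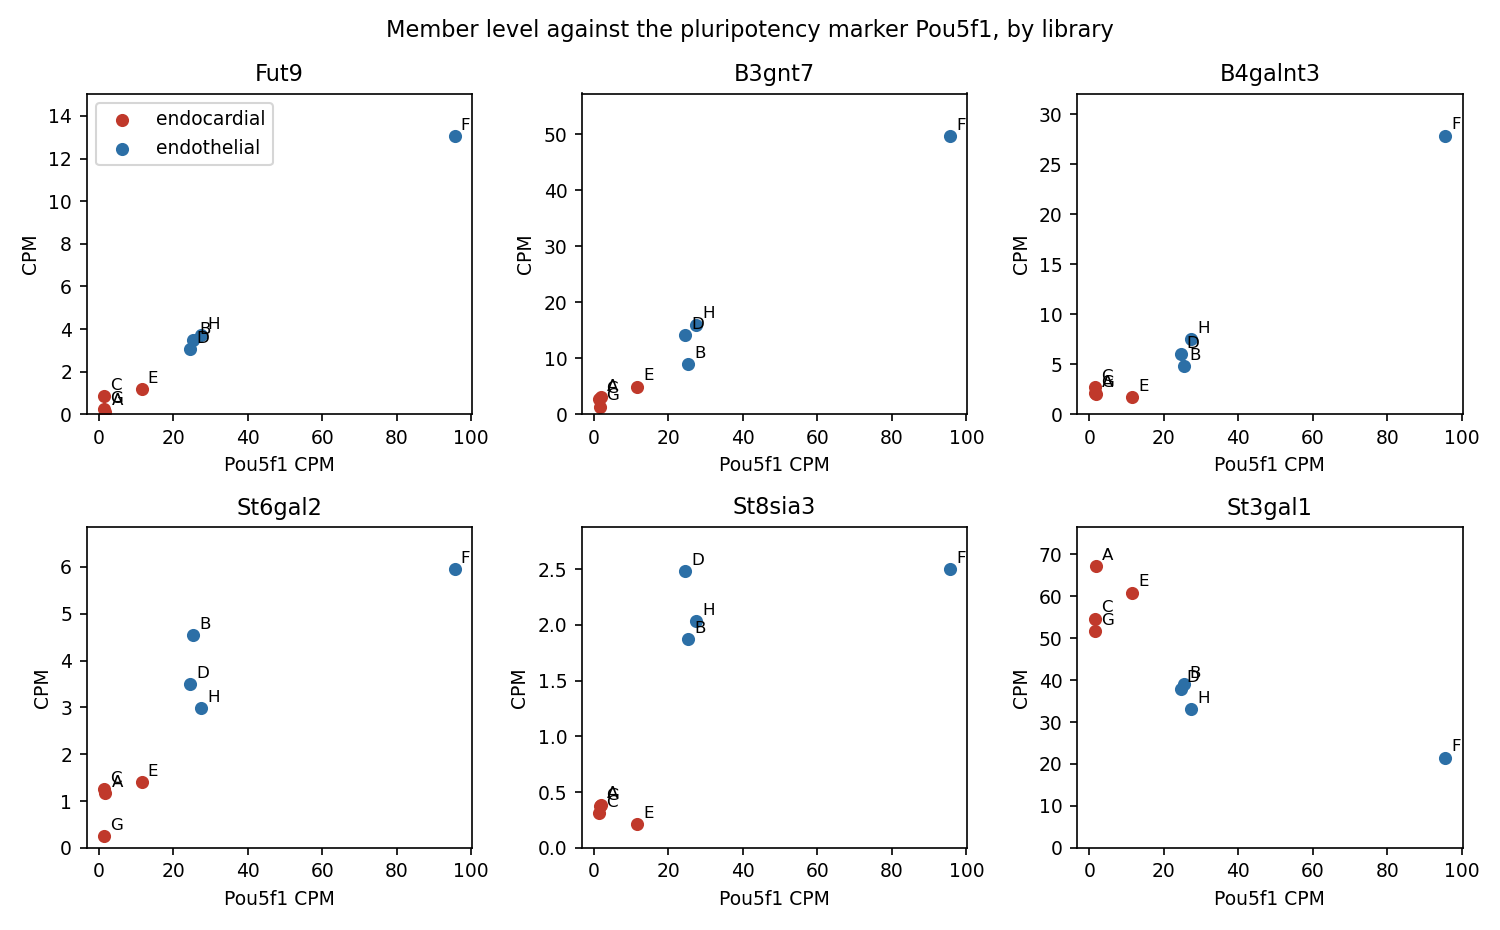
CPM of 6 members (y axis, from 0) against the CPM of the pluripotency marker Pou5f1 (x axis) in the 8 libraries, with letters. Library F, at 95.5 CPM of Pou5f1, has the highest Fut9, B3gnt7, B4galnt3, St6gal2 and St8sia3 and the lowest St3gal1, and libraries B, D and H lie between F and the endocardial libraries on the x axis.

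Marker genes of several cell types also differed between the groups in which the called members differed. Pou5f1, a defining transcription factor of pluripotent cells, was at 1.81, 1.47, 11.5 and 1.497 CPM in endocardial libraries A, C, E and G, against 25.3, 24.5, 95.5 and 27.4 CPM in endothelial libraries B, D, F and H. All 4 endothelial libraries were above all endocardial ones, library F was far above the rest, and E was the highest endocardial library (log2 fold change -3.38, adjusted p = 0.0569). Of the 12 pluripotency markers, 6 in library B, 9 in D, 9 in F and 11 in H were above all 4 endocardial libraries. Of the 12 neural ectoderm markers it was 9 in B, 9 in D, 9 in F and 8 in H. Of the 8 epithelial markers it was 6 in B, 5 in D, 6 in F and 8 in H. In the other direction, 13 of the 14 pan-endothelial markers were below all 4 endocardial libraries in each of B, D, F and H. Below them were also 4, 5, 6 and 5 of the 7 endocardial markers in B, D, F and H. Of the 9 blood markers it was 3, 9, 8 and 9, while 2 in B were above all endocardial libraries. Of the 8 cardiomyocyte markers, 5, 4, 5 and 1 were below and 0 above. Of the 8 mesenchyme markers, 4, 1, 0 and 3 in B, D, F and H were above, and 6 in F were below. Of the 8 endoderm markers, 2, 2, 3 and 0 were above and 2, 5, 4 and 2 below. Pou5f1 was picked for display after its values were seen. The part of cells of any of these types in the levels of the called members was not tested. Library F held the highest of the 8 values in 13 and the lowest in 11 of the 44 tested members, 29.5% and 25%, against 24.1% and 21.4% of all tested genes.

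The remaining sialyltransferases of the St3gal family were not called. St3gal5 makes the ganglioside from which most others derive. It had 95.1, 110, 91.1 and 90.6 CPM in endocardial libraries A, C, E and G, against 83.8, 89.2, 60.3 and 102 CPM in endothelial libraries B, D, F and H, and the groups overlapped. Its difference was 0.21 on the log2 scale (SE 0.15, adjusted p = 0.623). St3gal2, which acts on gangliosides and O-glycans, had one of 0.14 (SE 0.22), and St3gal3, St3gal4 and St3gal6, which sialylate lactosamine, had -0.04, 0.09 and 0.31. Per kilobase of exon, the endocardial order was St3gal5 at 36.9, St3gal2 at 17.1, St3gal1 at 8.55, St3gal3 at 5.86, St3gal4 at 4.26 and St3gal6 at 2.32 CPM per kb. In the endothelial libraries St3gal3 came before St3gal1, at 6.02 and 4.80 CPM per kb. St3gal1 made up 11.4% ± 1.47 of the family's summed level per kilobase in endocardial and 7.43% ± 0.868 in endothelial libraries (SD, n = 4 each).

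In the St6galnac family, St6galnac6, which acts on gangliosides, was the highest per kilobase, at 7.55 CPM per kb in endocardial and 7.15 in endothelial libraries, and it was not called (log2 fold change 0.08, SE 0.11). St6galnac2, an O-glycan enzyme, had a log2 fold change of -0.31 and St6galnac5, a ganglioside enzyme known from brain, one of 0.15, both not called. The annotation holds the symbol St6galnac2 more than 1 time, so its length is uncertain. St6galnac1 had 9 counts in all.

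In the St8sia family, St8sia1, which makes the disialoganglioside that opens the b series, had 23.6, 18.3, 18.6 and 16.2 CPM in endocardial libraries A, C, E and G, against 10.1, 8.32, 16.8 and 5.74 CPM in endothelial libraries B, D, F and H. Only library F overlapped the endocardial range. The log2 difference was 0.90 (SE 0.29, adjusted p = 0.153), and without F it was 1.23 (adjusted p = 0.0268). St8sia1 was also called by limma (adjusted p = 0.0082) and with the block (adjusted p = 0.0361). St8sia2 and St8sia4 polymerise sialic acid on the neural cell adhesion molecule. St8sia2 was at 11.3 ± 3.57 CPM in endocardial and 15.6 ± 4.24 CPM in endothelial libraries (SD, n = 4 each; log2 fold change -0.47, SE 0.28, adjusted p = 0.519). St8sia4 had 21.6 CPM in endocardial library A and 12.04 CPM in endothelial library B, and 3.87 to 7.10 CPM in the other 6 libraries of both groups. Libraries A and B also had the highest sums over 9 blood markers, 1638 and 2016 CPM, against 257 to 869 CPM in the other 6. The largest part of these 2 sums was Hbb-bh1, at 823 and 1252 CPM. Hba-x, Itga2b and Ptprc were also highest in A and B. In B, however, Tal1, Gfi1b and Runx1 were below all 4 endocardial libraries, at 42.4, 5.26 and 18.1 CPM. Gata1 and Spi1 were higher in E than in B. The part of such cells was not tested. The log2 fold change of St8sia4 was 0.48 (SE 0.55), and without A it was -0.31. Per kilobase, St8sia1 made up 45.1% ± 7.09 of the family's summed level in endocardial and 23.1% ± 4.67 in endothelial libraries, while St8sia2 made up 44.3% ± 7.18 in endocardial and 63.2% ± 5.53 in endothelial libraries (SD, n = 4 each). These shares were not tested.

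Of the other fucosyltransferases, Fut8, which adds the core fucose of N-glycans, was the highest of the family per kilobase. It had 76.7, 76.5, 67.1 and 90.3 CPM in endocardial libraries A, C, E and G, against 105, 75.8, 41.0 and 114 CPM in endothelial libraries B, D, F and H. The endothelial values spread on both sides of the endocardial ones (log2 fold change -0.11, SE 0.27, adjusted p = 0.909). Fut10 and Fut11 had log2 fold changes of 0.10 and -0.06. Fut1 and Fut2, which make the H antigen, had 21 and 20 counts in all and were not tested. Fut7, which completes sialyl Lewis x in leukocytes, had 2 counts in all, 1 each in endothelial libraries B and D.

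**Figure D4:**
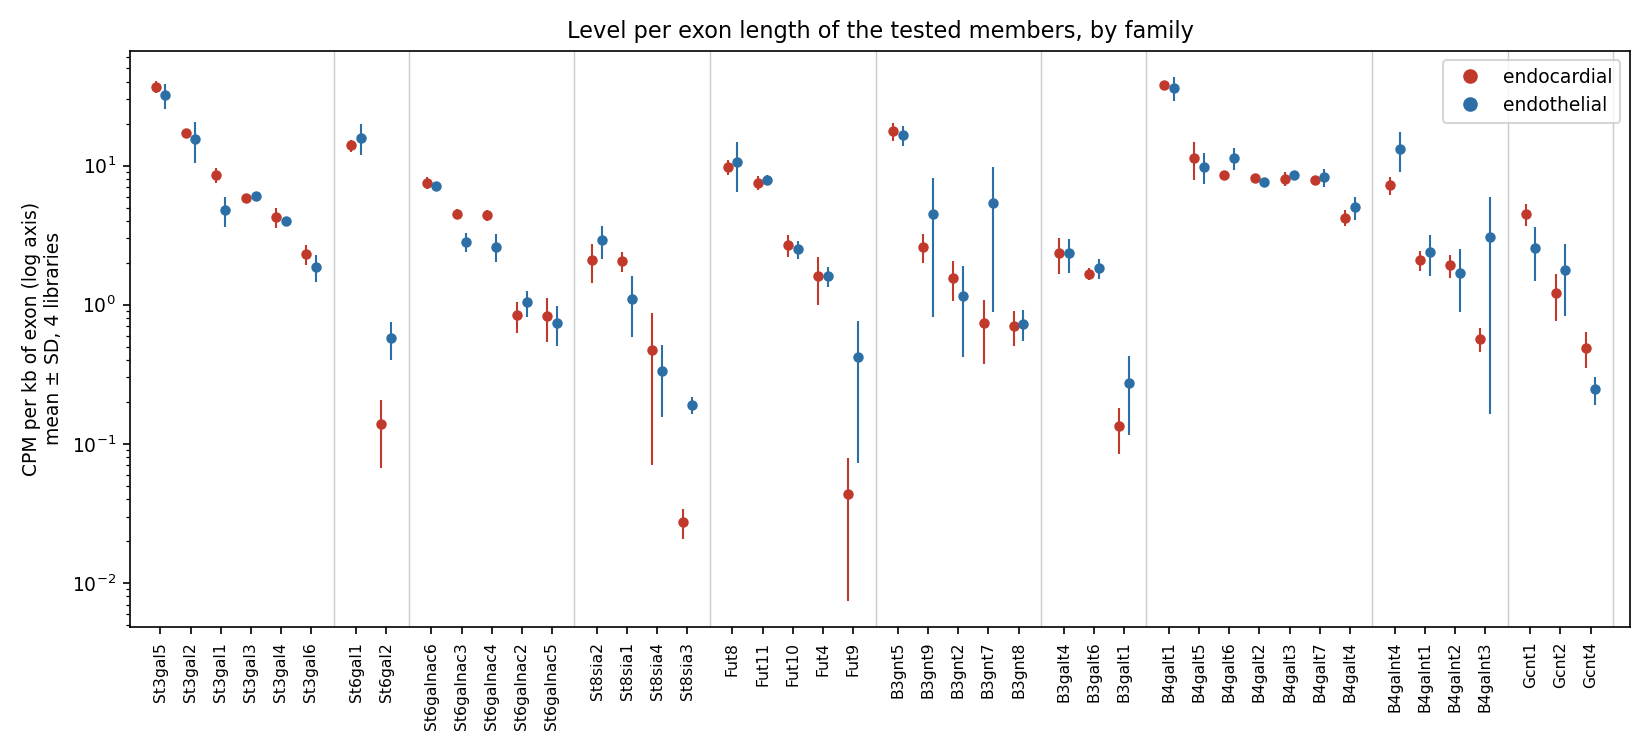
Mean CPM per kilobase of exon (log axis) of the 44 tested members, by family, with endocardial left and endothelial right in each pair. Bars are the SD of 4 libraries. B4galt1 and St3gal5 are highest, at 37.7 and 36.9 CPM per kb in endocardial libraries, and the 4 members called lower are at or below 0.734 CPM per kb there.

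The B4galt genes make lactosamine and related galactose linkages. B4galt1, the main lactosamine synthase, had 168, 171, 144 and 155 CPM in endocardial libraries A, C, E and G, against 183, 150, 112 and 168 CPM in endothelial libraries B, D, F and H. The ranges overlapped (log2 fold change 0.06, SE 0.15, adjusted p = 0.914). edgeR called 0 of the 7 B4galt genes, with 1, B4galt6, at an unadjusted p under 0.05 and called by limma (adjusted p = 0.0395), and their log2 fold changes lay between -0.40 and 0.21. The lowest was that of B4galt6, a lactosylceramide synthase, which had 46.5, 48.7, 50.7 and 53.6 CPM in endocardial libraries A, C, E and G, against 52.8, 65.0, 81.3 and 63.9 CPM in endothelial libraries B, D, F and H. Its ranges overlapped at libraries G and B (SE 0.13, adjusted p = 0.178), and B4galt5, the other lactosylceramide synthase, had a log2 fold change of 0.21. B4galt7, which adds the first galactose of the proteoglycan linker, had one of -0.08.

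B3gnt5, which starts the lacto-series glycolipids, was the highest B3gnt gene per kilobase. It had 82.8, 93.7, 79.9 and 110 CPM in endocardial libraries A, C, E and G, against 90.6, 78.6, 72.7 and 105 CPM in endothelial libraries B, D, F and H. The groups overlapped throughout (log2 fold change 0.08, SE 0.14, adjusted p = 0.874). B3gnt7 made up 3.21% ± 1.72 of the family's level per kilobase in endocardial and 18.6% ± 14.6 in endothelial libraries (SD, n = 4 each). B3gnt9 had 24.6 CPM in library B and 3.23 to 10.3 CPM in the other endothelial libraries, against 4.37 to 8.004 CPM in endocardial ones, and was not called. B3gnt2, the main polylactosamine synthase, had 4 counts in endothelial library D and 35 to 74 in the other 7. Exons of another annotated gene on its strand, Gm28048, cover 58.6% of its exon length and had 57 counts in D, so the division of reads between them is uncertain. Of the B3galt genes, B3galt6, the next enzyme of the proteoglycan linker, had 5.94, 5.23, 4.62 and 5.49 CPM in endocardial libraries A, C, E and G, against 6.24, 5.26, 6.99 and 4.90 CPM in endothelial libraries B, D, F and H. These ranges overlapped, and its difference was -0.14 on the log2 scale (SE 0.22, adjusted p = 0.844). B3galt4, a ganglioside enzyme, had one of -0.01, and B3galt1, which makes type 1 chains, one of -1.02 (SE 0.48, adjusted p = 0.369) at 0.768 ± 0.28 CPM in endocardial and 1.57 ± 0.904 CPM in endothelial libraries (SD, n = 4 each).

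The 13 members too low to be tested were B3galt2, B3galt5, B3gnt3, B3gnt4, B3gnt6, Fut1, Fut2, Fut7, Gcnt3, Gcnt7, St6galnac1, St8sia5 and St8sia6. They had between 2 and 33 counts summed over the 8 libraries. St8sia6, which acts on O-glycans, reached 11 counts in library F, its highest value. Exons of Diablo on the opposite strand cover 93.2% of those of B3gnt4, and opposite-strand exons of Gm28626, St8sia3os and D330020A13Rik cover 12.6% of those of B3gnt7, 7.85% of St8sia3 and 4.47% of B4galnt3. Whether the counting used the strand is not stated in the sources used here, so reads of such genes may not be told apart.

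Genes that supply and precede these enzymes were read from lists. Of 10 tested genes of sialic acid supply and removal, 0 were called higher and 1 lower, and 6 had an unadjusted p under 0.05. These were Gne, Cmas, Neu3 and Npl, with positive log2 fold changes, and Nanp and Cmah, with negative ones. The one called lower was Nanp, the phosphatase that releases free sialic acid, at 2.32, 2.09, 3.76 and 2.25 CPM in endocardial libraries A, C, E and G, against 6.60, 5.40, 5.53 and 8.97 CPM in endothelial libraries B, D, F and H. The groups did not overlap (log2 fold change -1.34, SE 0.29, adjusted p = 0.0436). The call of Nanp was lost in 6 of the 8 fits with 1 library left out, all but those without E or F, with an adjusted p of up to 0.133. Cmas, which activates sialic acid, had a log2 fold change of 0.70 (adjusted p = 0.0539) and Cmah, which hydroxylates it, one of -1.52 (adjusted p = 0.0752), with 237 CPM of Cmah in library F. DESeq2 called 2 of these genes higher and 2 lower, and limma 4 and 2. The list's median log2 fold change was 0.17.

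Of 10 N-glycan branching genes, 0 were called higher and 1 lower, Mgat5b, a branching enzyme known from brain. It had 1.55, 1.15, 1.29 and 0.624 CPM in endocardial libraries A, C, E and G, against 4.37, 4.82, 10.8 and 4.07 CPM in endothelial libraries B, D, F and H. Library F was again highest (log2 fold change -2.37, SE 0.43, adjusted p = 0.0197), and the list's median was -0.07. The call of Mgat5b was lost without C, D, E or G, with an adjusted p of up to 0.0729. Of 3 carriers of polysialic acid, Cadm1 was lower, at 118, 85.8, 66.4 and 86.5 CPM in endocardial libraries A, C, E and G, against 151, 139, 169 and 155 CPM in endothelial libraries B, D, F and H (log2 fold change -0.78, SE 0.16, adjusted p = 0.0335). The call of Cadm1 was kept without A or B and lost in the other 6 such fits, with an adjusted p of up to 0.112. Ncam1, the main carrier, was not called (-0.23, SE 0.27). In the lists of fucose supply (10 genes tested), galactose and N-acetylglucosamine supply (12), O-glycan initiation and core 1 (14), glycolipid core synthesis (8), keratan sulfate (9), proteoglycan linker (7) and lectins (6), edgeR called 0 genes, and the medians lay between -0.17 and 0.19. At an unadjusted p under 0.05 these 7 lists held 10 of their 66 tested genes. Among all tested genes 14.6% had such a p. By DESeq2 1 O-glycan gene was higher, and 1 O-glycan and 1 linker gene were lower. By limma and with the block 2 O-glycan genes were higher, and 1 O-glycan and 1 linker gene were lower, and the block also called 1 fucose supply and 1 keratan sulfate gene lower.

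Sequences upstream of called members were looked up to show what the promoters of a lower and a higher member look like. RefSeq start sites (build GRCm38.p6) were at hand for 42 of the 57 members and 4 of the 7 called ones, and in 2 of them the 250 bases before the start overlap no annotated exon. These are St6gal2 (chr17:55445132-55445381, plus strand, lower in endocardial libraries) and St6galnac4 (chr2:32586828-32587077, plus strand, higher in endocardial libraries). Capitals mark matches on either strand to GGGCGG, the GC box bound by Sp and Klf factors.
St6gal2: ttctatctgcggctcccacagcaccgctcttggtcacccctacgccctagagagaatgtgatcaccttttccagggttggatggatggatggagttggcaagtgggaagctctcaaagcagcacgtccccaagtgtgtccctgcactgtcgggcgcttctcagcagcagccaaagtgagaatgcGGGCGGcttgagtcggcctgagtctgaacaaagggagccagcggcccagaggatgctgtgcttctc
St6galnac4: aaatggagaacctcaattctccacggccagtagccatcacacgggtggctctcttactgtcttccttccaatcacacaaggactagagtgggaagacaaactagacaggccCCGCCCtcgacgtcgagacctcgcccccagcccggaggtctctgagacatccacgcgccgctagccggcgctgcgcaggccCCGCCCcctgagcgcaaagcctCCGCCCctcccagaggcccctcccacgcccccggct
The window of St6gal2 held 1 match and that of St6galnac4 held 3, and 32.7% of 32851 RefSeq promoter windows of that length held at least 1. The other motifs searched on both strands were CCGGAA, a core of ETS factor sites held by 12% of all windows, and ATTGTT, a core of SOX factor sites held by 9.42%. The octamer motif ATGCAAAT was held by 1.6% of all windows and the TATA box, searched as TATAAA, by 12.4%. Neither of the printed windows held any of these. None of these motifs is contained in another. The windows had 58.4% and 65.2% G and C, against a median of 52.4% over all windows.

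The 7 calls lay close to the threshold apart from St8sia3. Over the 16 alternative settings the adjusted p of St8sia3 ran from 0.000247 to 0.0228, over the 15 in which it was tested. It passed the low-count filter through the endothelial libraries alone, so its being tested already leaned on the difference. The adjusted p of the other 6 lay between 7.7e-06 and 0.152 and crossed 0.05. Leaving out a library made edgeR call between 0 and 4 members higher and between 1 and 4 lower. Without A, C, D, E or G it called 0 higher, with 5 or 6 higher at an unadjusted p under 0.05, and DESeq2 on all 8 libraries called 3. The log2 fold changes of the 7 called members kept their sign under every alternative in which they were tested.

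**Figure D5:**
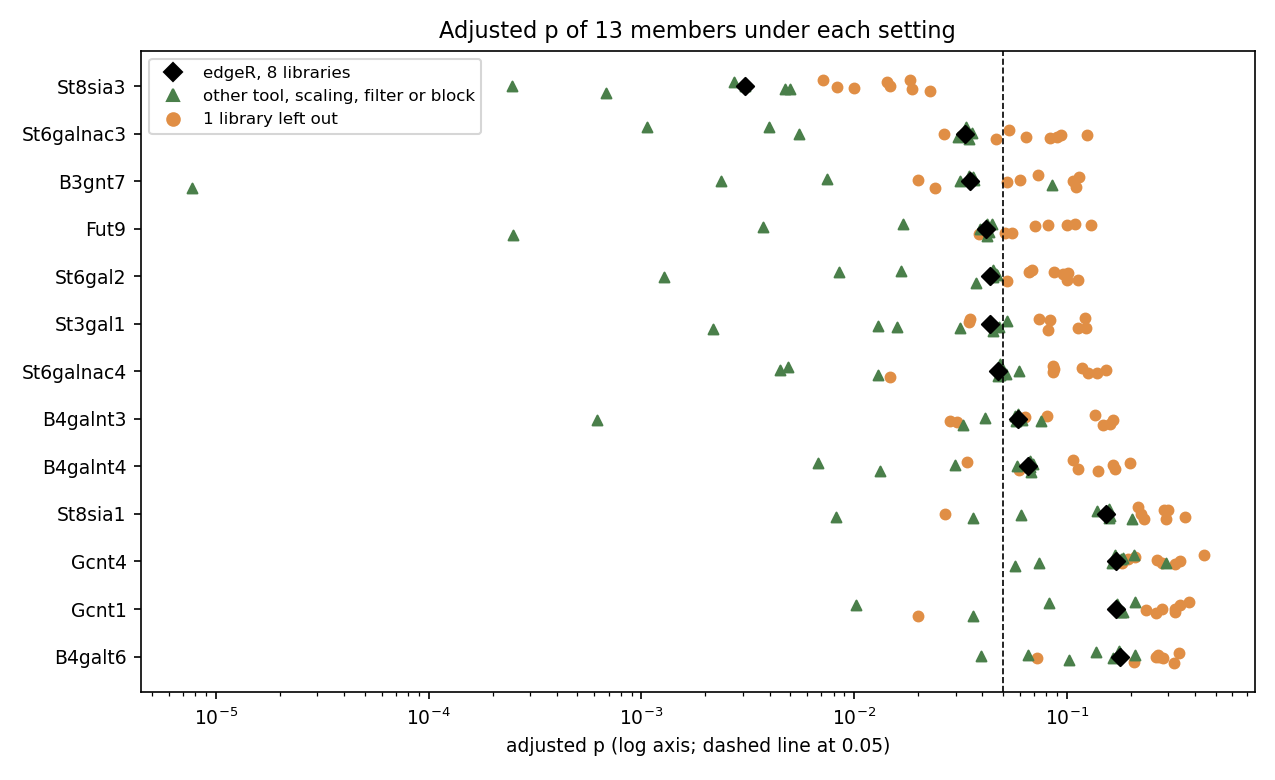
Adjusted p (log axis) of the 13 members with an unadjusted p under 0.05, for the edgeR fit on 8 libraries (diamonds), the other tools, scalings, filters and the block (triangles) and the fits with 1 library left out (circles). St8sia3 stays left of 0.05 at every point, and each of the other 6 called members has points on both sides. St8sia3 has no point for the stricter filter, and it passed the main filter through the endothelial libraries alone.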

How the data were processed

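RNA was extracted with a Qiagen RNeasy kit and libraries were made with an Illumina stranded mRNA kit, per the labels' protocols. The authors deposited estimated counts, 1 value for each gene symbol and library. Salmon, DESeq2 and build mm10 are named per the submitters' processing notes. Versions, transcript set and filters are not stated in the sources used here. The estimated counts as the authors deposited them are whole numbers, so rounding changed nothing.

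In R 4.3.3, edgeR 4.0.16 removed low genes (filterByExpr with 10 as the minimum count and 15 as the minimum total), computed TMM factors and ran the test (robust quasi-likelihood F-test, endocardial minus endothelial, Benjamini-Hochberg over 13817 genes, threshold 0.05). Each SE is the size of the log2 estimate over the root of its F statistic. Alternatives used DESeq2 1.42.0, limma 3.58.1 (voom with quality weights), 2 other scalings, no filter, a stricter filter (1 CPM in 4 libraries and a total of 100), estimation without robustness, a block of neighbouring letters and leaving out each library. The edgeR step was tested on simulated data. Levels per kilobase use the exon union of GENCODE M21, which holds all 57 members, and coordinates are from it, 1-based. Promoter sequences are from RefSeq (GRCm38.p6). Full values are given for members with an adjusted or unadjusted p under 0.05 and for the member of highest CPM in each family, and of the other pathway genes for those called. Other members and genes are named with fewer values. The members, lists and rules were chosen with earlier results of these data known.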

Additional observations from a re-analysis of the deposited data

Results flagged for a closer look

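In 5 of 88 sets of 4 libraries of a tested member, 1 library lay far from the other 3, and chance alone marks about 1 in 20. In endothelial library F, Fut9 was at 13.04 CPM, against 3.07 to 3.71 CPM in B, D and H. B4galnt3 was at 27.8 CPM in F, against 4.81 to 7.53 CPM in the others, and Fut11 at 29.3 CPM in F, against 34.3 to 35.2 CPM. B4galt7 was at 29.1 CPM in endothelial library B, against 21.5 to 22.7 CPM in the others. B4galt2 was at 37.4 CPM in endocardial library G, against 42.0 to 42.7 CPM in the others.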

How the results depend on the processing

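The number of members called higher was 3 with edgeR on 8 libraries, and 5 with limma, 5 with neighbouring letters as a block and 1 with upper-quartile scaling. It ran from 0 to 4 when 1 library was left out. The number called lower was 4, and 7 with limma, and ran from 1 to 4 when 1 library was left out. Over all genes 356 were called, and 860 with DESeq2, 975 with limma, 1204 with the block and 135 (without E) to 457 (without B) when 1 library was left out. No paired analysis was possible because no letter is shared by libraries of both groups, and the block of neighbouring letters (A with B, C with D, E with F, G with H) is not a pairing that the labels state. Of 698 alternative values of the 44 tested members, 638 kept direction or, where not called, stayed not called, 44 lost a call, 16 gained one and 0 turned a called direction round. All 7 called members were also called by DESeq2, by limma and with the block, while without A, C, D, E or G only 1 of the 7, St8sia3, kept its call. Ranking endocardial levels by the longest transcript in place of the exon union kept the highest member of 9 of the 10 families. The exception was St8sia. St8sia2 and St8sia1 were at 2.09 and 2.05 CPM per kb by exon union, and at 2.10 and 2.13 by longest transcript. Depth limits the lowest genes: St8sia3 rests on 11 endocardial counts, and the 13 members with 2 to 33 counts in all could not be compared.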
